A study of Mus musculus with 12 samples.

Results

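The ephrin, Slit and netrin guidance genes are 35 mouse genes that encode cues and receptors steering growing axons: 5 ephrin-A and 3 ephrin-B ligands, 9 EphA and 5 EphB receptors, 3 Slits, 3 Robo receptors, 2 netrins and 5 netrin receptors. Their accessible chromatin was read from ATAC-seq. In this assay the enzyme Tn5 cuts open chromatin and attaches adapters to the ends, so that accessible positions collect more fragments and form peaks. The peaks of 12 libraries were merged where they shared at least 1 bp, and a region was assigned to a guidance gene when it overlapped the gene body or the 5 kb upstream of one of its transcript starts. By this rule the 35 genes held 1037 of 263562 regions (0.393%). Of the 1037 regions, 112 lay within 1 kb of a transcript start and were counted as promoters, 861 lay in introns, 41 touched an exon and 23 lay upstream. No region was shared by 2 guidance genes, and 4 of them lay at the promoter of a gene outside the family.

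The libraries came from primary cortical neurons of wild-type C57BL/6 mouse embryos at embryonic day 18, with 3 libraries in each of 4 groups, all labelled batch 1. Neurons in the PBS group received vehicle for 7 days. Those in the PFF group received preformed fibrils of α-synuclein, aggregates that seed the misfolding of the neurons' own protein, for 7 days. The PFF+MLi-2 group received the same fibrils and, for the last 5 days, MLi-2, which blocks the kinase activity of LRRK2. The PFF+Rab5 ASO group received fibrils and antisense oligonucleotides against Rab5a and Rab5b, 2 forms of the GTPase of early endosomes, for the last 3 days. A peak list does not measure RNA, so the loss of Rab5 transcripts was not checked here. All treated groups share the PFF exposure, no group received MLi-2 or the oligonucleotides without fibrils, and no control oligonucleotide was analysed here. The comparisons were therefore PFF with PBS, and each of the other 2 groups with PFF, named the MLi-2 comparison and the Rab5 ASO comparison below.

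Ephrins are bound to the cell membrane, ephrin-A ligands through a lipid anchor and ephrin-B ligands through a transmembrane segment, and they activate Eph receptor tyrosine kinases on neighbouring cells, most often causing growth cones to withdraw. Slits are secreted proteins that repel axons through Robo receptors. Netrins attract axons through Dcc and repel them through Unc5 receptors, alone or with Dcc. In the developing cortex these systems pattern topographic maps, commissures and neuronal migration, and several members later act at synapses.

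The regions on which the comparisons turn were short stretches of intron, and their DNA is shown first. All sequences are the plus strand of GRCm38, 5′ to 3′, in lower case, and capitals mark any match on either strand to the AP-1 site TGANTCA, the E-box CACGTG, the E-box CAGCTG, the E-box CAGATG or the ETS core CCGGAA. For regions longer than 300 bp the window of 201 bp around the summit is shown. The first set holds the 3 guidance regions that had a peak in all 3 PFF libraries and in no other library, in introns of Unc5d, Efna5 and Ntn1.

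Unc5d chr8:28992564-28992682: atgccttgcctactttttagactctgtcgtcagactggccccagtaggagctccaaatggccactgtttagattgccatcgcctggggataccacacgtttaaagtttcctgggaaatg

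Efna5 chr17:62761299-62761446: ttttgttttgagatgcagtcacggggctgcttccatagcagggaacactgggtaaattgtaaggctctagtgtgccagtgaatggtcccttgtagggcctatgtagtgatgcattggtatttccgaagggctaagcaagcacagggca

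Ntn1 chr11:68366564-68366644: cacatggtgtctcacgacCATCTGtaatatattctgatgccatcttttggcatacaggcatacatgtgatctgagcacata

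The second set holds the 3 regions that had a peak in all 3 PBS libraries and in no PFF library, in introns of Slit3 and Epha6.

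Slit3 chr11:35295298-35295459: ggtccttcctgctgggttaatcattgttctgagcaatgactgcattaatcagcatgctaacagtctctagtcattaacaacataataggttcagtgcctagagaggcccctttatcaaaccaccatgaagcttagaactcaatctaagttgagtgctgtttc

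Epha6 chr16:60144468-60144627: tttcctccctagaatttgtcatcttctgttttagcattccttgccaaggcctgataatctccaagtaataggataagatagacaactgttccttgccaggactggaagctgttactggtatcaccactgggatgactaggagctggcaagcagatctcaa

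Epha6 chr16:60435334-60435518: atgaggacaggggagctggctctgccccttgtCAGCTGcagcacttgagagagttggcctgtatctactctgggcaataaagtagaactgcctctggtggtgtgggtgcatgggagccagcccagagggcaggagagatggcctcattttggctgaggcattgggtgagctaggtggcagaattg

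The third set holds 6 of the 7 regions whose height differed between PFF+Rab5 ASO and PFF in the test across all regions, 5 of them higher (Robo2, Slit3, 2 of Unc5d and Epha3) and 1 of the 2 lower ones (Unc5b).

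Robo2 chr16:74191730-74191975: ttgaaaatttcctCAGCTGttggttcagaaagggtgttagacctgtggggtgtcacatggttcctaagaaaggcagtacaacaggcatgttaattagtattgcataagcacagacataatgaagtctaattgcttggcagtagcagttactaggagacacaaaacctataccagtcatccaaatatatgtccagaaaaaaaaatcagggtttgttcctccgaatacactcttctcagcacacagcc

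Slit3 chr11:35286704-35286879: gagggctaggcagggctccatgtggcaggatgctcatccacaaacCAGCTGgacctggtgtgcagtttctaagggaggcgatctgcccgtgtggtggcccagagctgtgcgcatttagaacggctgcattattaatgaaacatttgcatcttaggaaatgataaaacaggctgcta

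Unc5d chr8:28662044-28662250: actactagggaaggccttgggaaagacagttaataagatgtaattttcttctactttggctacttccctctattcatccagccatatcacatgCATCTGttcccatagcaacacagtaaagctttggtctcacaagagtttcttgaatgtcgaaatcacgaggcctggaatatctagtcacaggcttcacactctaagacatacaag

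Unc5d chr8:28801629-28801829: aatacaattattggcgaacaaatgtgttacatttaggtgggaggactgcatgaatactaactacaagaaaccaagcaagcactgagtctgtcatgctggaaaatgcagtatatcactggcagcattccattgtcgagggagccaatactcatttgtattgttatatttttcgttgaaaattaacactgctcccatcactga

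Epha3 chr16:63782169-63782369: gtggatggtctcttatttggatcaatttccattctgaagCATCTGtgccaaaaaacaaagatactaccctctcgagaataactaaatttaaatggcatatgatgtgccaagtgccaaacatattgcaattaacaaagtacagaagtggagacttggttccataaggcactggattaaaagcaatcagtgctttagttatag

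Unc5b chr10:60817051-60817251: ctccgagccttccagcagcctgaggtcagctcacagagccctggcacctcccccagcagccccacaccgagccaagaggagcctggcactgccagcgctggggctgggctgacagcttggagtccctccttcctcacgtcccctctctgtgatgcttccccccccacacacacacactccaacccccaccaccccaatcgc

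The last set holds 2 of the regions that had a peak in all 3 PFF+Rab5 ASO libraries and in none of the other 9, in introns of Slit2 and Slit3.

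Slit2 chr5:48276585-48276726: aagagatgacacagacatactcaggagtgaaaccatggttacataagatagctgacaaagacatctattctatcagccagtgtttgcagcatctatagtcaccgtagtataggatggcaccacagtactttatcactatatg

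Slit3 chr11:35380899-35381028: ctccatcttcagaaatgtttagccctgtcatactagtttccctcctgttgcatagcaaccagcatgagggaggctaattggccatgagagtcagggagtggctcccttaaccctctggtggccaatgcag

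The sequence content of guidance regions lay close to that of all regions. Their median width was 146 bp against 149 bp, and their median GC content was 48.3% against 48.8%. Guidance promoters were richer in GC, with a median of 62.7% against 59.7% at all promoters, and guidance introns were poorer, with 46.8% against 47.8%. Within 100 bp of the summit, TGANTCA occurred in 9.35% of guidance regions and in 10.8% of all regions, CACGTG in 3.86% and 3.52%, CAGCTG in 17.7% and 17.0%, CAGATG in 24.6% and 22.2%, and CCGGAA in 2.22% and 3.53%. At promoters alone CCGGAA was found in 6.25% of guidance regions and in 11.4% of all. Of guidance regions 1.25% were mostly repeat-masked, against 3.39% of all regions. A match shows only that the letters are present in the window.

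The 35 genes differed widely in how many accessible regions they held, and most regions lay in a few long receptor and Slit genes. The 18 genes of at least 100 kb held 907 of the 1037 regions (87.5%), and the number of regions followed gene length with a Spearman coefficient of 0.89 over 35 genes, given as a description. Slit3, which spans 587.3 kb, held 142 regions, more than any other gene on the list, and 38 of them had a peak in every library. It was followed by Robo1 with 82 regions, Ephb1 with 77, Unc5d with 72 and Dcc with 62. Region density among the long genes ran from 5.57 regions per 100 kb in Epha6 to 35.6 per 100 kb in Slit1, with a median of 12.1. Dcc, the receptor for netrin attraction and the longest of the genes at 1097 kb, had only 5.65 regions per 100 kb. At the other end, the short gene Ephb6, whose product lacks kinase activity, held 3 regions and all 3 had a peak in every library, whereas none of the 3 regions of Epha1 did.

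A peak in every library was found for 255 guidance regions (24.6%), against 72408 (27.5%) of all regions, and 263 guidance regions (25.4%) had a peak in a single library, against 26.6% of all. The PBS libraries had a peak in 423 to 602 guidance regions, PFF libraries in 506 to 574, PFF+MLi-2 libraries in 457 to 474 and PFF+Rab5 ASO libraries in 535 to 598. All 3 PFF+MLi-2 libraries lay below all 3 PFF libraries, and the other groups overlapped PFF. PBS replicate 1 supplied the highest PBS count. Guidance regions made up 0.393% ± 0.0116 of the regions with a peak in PFF+Rab5 ASO, 0.378% ± 0.00557 in PFF+MLi-2, 0.390% ± 0.00208 in PFF and 0.377% ± 0.00907 in PBS (SD, n = 3 libraries each). This share was 0.388% to 0.392% in PFF libraries, above every PFF+MLi-2 library (0.373% to 0.384%) and every PBS library (0.370% to 0.387%).

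**Figure D1:**
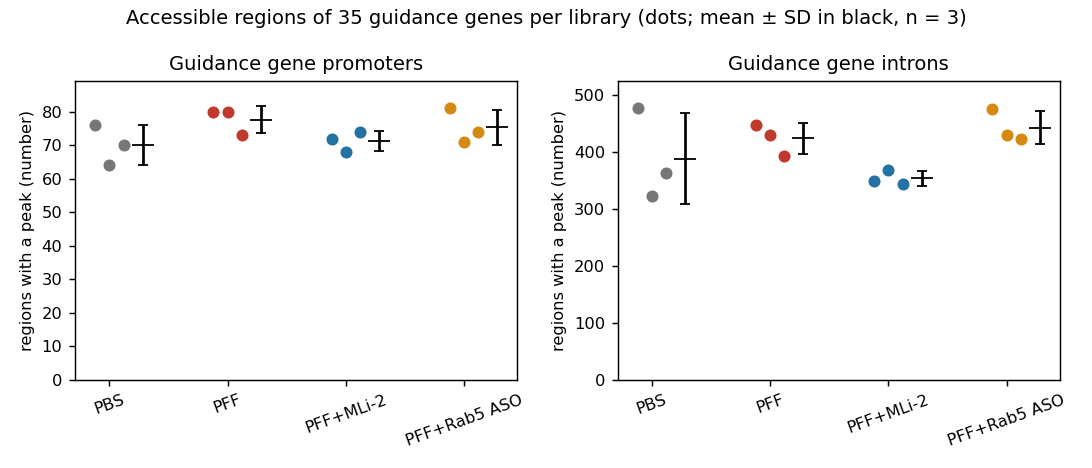
Number of guidance gene regions with a peak in each library (dots) at promoters (left) and in introns (right), with the mean and SD of each group in black (n = 3). Promoter counts ran from 64 to 81 and each group overlapped PFF, while the intron counts of PFF+MLi-2 (345 to 369) lay below those of PFF (394 to 448).

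Whole-library properties differed between groups and accompany every result below. The lists held 137299 to 184564 peaks, and the median summit pileup over guidance regions was 16 to 19 fragments, so the weakest peaks stand on a small number of fragments. Relative depth, estimated from the background of each list and scaled to a mean of 1, was 1.22 ± 0.149 in PFF+Rab5 ASO, 1.00 ± 0.0372 in PFF+MLi-2, 0.843 ± 0.0723 in PFF and 0.939 ± 0.0330 in PBS. This estimate takes the smallest peak width as the fragment length used by the peak caller, which the sources used here do not state, and a narrower smallest peak raises it. The background before that step was 1.815 to 2.113 fragments in PFF+Rab5 ASO and 1.503 to 1.73 in PFF. The PFF+Rab5 ASO lists also had the narrowest smallest peak (53 to 59 bp against 62 to 66 bp) and the lowest median width (112 to 124 bp against 127 to 139 bp). The part of depth and peak width in the PFF+Rab5 ASO results was not tested. The neuronal label was checked on marker promoters: all 10 neuronal and 4 interneuron markers had a promoter peak in every library, as did all 6 astrocyte and 5 progenitor markers, whereas none of 6 microglial markers did, with Aif1 and Cx3cr1 without any promoter peak, and 1 of 3 endothelial markers did. The median height of the progenitor promoters, on the percentile scale defined next, was 50.8 in PFF+MLi-2, 68.9 in PFF+Rab5 ASO, 73.5 in PFF and 74.6 in PBS, and that of the neuronal promoters was 67.6, 67.7, 66.2 and 69.6 in the same order. Against PFF, the progenitor promoters of Eomes (48.0 against 73.5) and Nes (50.8 against 63.0) were lower in PFF+MLi-2, Sox2 (82.7 against 81.0) and Pax6 (80.3 against 79.5) were close, and Hes5 (42.9 against 20.3) was higher. The astrocyte promoters had medians of 72.7 in PFF+MLi-2, 62.9 in PFF+Rab5 ASO, 64.6 in PFF and 72.0 in PBS. The part of other cell types in the promoter results below was not tested. In bulk libraries a change in the share of a cell type and a change in accessibility within cells cannot be told apart.

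Height was expressed as a percentile, the rank of a peak's fold enrichment over local background among all peaks of its own list. Most guidance genes had an accessible promoter throughout. For 33 of 35 genes the highest promoter region, picked by its own height, had a peak in all 12 libraries. Of all 112 guidance promoter regions, 46.4% had a peak in all 12 libraries, against 49.9% of all promoter regions. Those present in all 12 had a median percentile of 73.1, below the 84.8 of all such promoters. Over the 35 genes, 30 of the highest regions overlapped a transcript start, and the median percentile over the 35 genes was 79.8. The highest mean percentile was that of Epha3, a receptor for ephrin-A ligands, at 98.0 ± 1.47 over the 12 libraries, and 6 others reached 90 or more: Unc5d (95.2), Epha7 (94.4), Ephb4 (94.0), Epha10 (93.3), Ephb3 (92.4) and Ephb1 (90.6). All 7 encode receptors. Epha3 and Unc5d (95.2 ± 1.57) differed by more than either SD over libraries. From Unc5d down to Ephb3, neighbours differed by less than their SD, for example Unc5d and Epha7 (94.4 ± 1.90).

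Ligand promoters filled most of the lower end. Slit1 lay at 40.4, Efna4 at 40.5, Efna3 at 47.7 and Ntn4 at 52.7. The promoter of Epha1 had a peak in 6 libraries, none of them PFF+MLi-2, with a mean percentile of 27.6. That of Efna5, a ligand with repellent action on retinal and cortical axons, had a peak in 11 libraries at a mean percentile of 3.65. A low percentile did not mean few fragments, because fold is taken over local background. The Efna5 summit held 19 to 28 fragments at folds of 2.87 to 3.86, while the summit at the Ntn1 promoter held 18 to 31 fragments at folds of 5.44 to 8.32 and percentiles of 57.8 to 84.1.

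**Figure D2:**
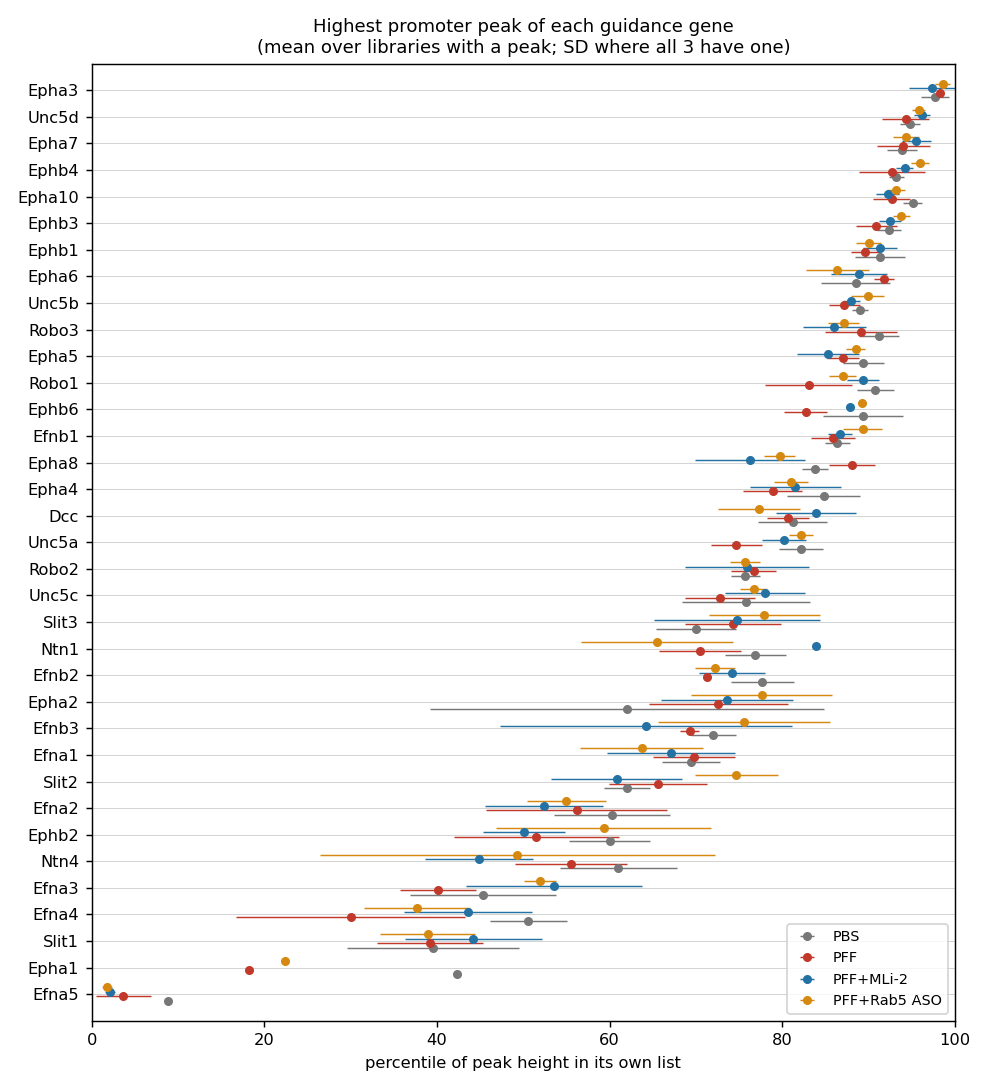
Mean percentile of peak height at the highest promoter region of each of the 35 guidance genes, ordered by the mean over libraries, with the 4 groups in colour and SD bars where all 3 libraries had a peak. The groups lie close together for the receptors at the top and spread further for Efna4, Ntn1, Ntn4 and Epha2, and Epha1 has no PFF+MLi-2 value.

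Between groups the promoters moved by a few percentile points at the median. The difference between the highest and lowest group mean of a promoter had a median of 6.39 percentile points over the 35 genes. Among the 33 promoters with a peak in every library it was widest at Efna4 (20.5), Ntn1 (18.5), Ntn4 (16.2) and Epha2 (15.6), and at Epha1, which had 2 peaks in each of 3 groups, it was 24.1. At Epha2 the PBS libraries lay at 82.4, 37.4 and 66.0, so the difference rested largely on PBS replicate 2. Ntn1 had the second widest spread of the 33, in the highest of its 5 promoter regions, 774 bp from a transcript start. Its percentile was 83.6, 84.0 and 84.1 with PFF+MLi-2, 78.1, 72.9 and 79.5 with PBS, 72.8, 65.1 and 73.7 with PFF, and 63.5, 57.8 and 75.0 with PFF+Rab5 ASO. The PFF+MLi-2 libraries lay above all others there. With limma on the 6 libraries of each comparison, adjusted by Benjamini-Hochberg over all regions, the lowest adjusted p among the 33 promoters was 0.181 in the Rab5 ASO comparison, 0.267 in the MLi-2 comparison and 0.452 for PFF vs PBS. No promoter passed.

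The first comparison asked whether fibrils changed accessibility at guidance genes. Few regions appeared or disappeared. A region was counted as gained when it had a peak in each of the 3 treated libraries of a comparison and in none of its 3 reference libraries (PBS in the first comparison, PFF in the others), and as lost in the reverse case. From PBS to PFF 8 of 850 guidance regions with a peak in any of these 6 libraries were gained (0.941%, against 1.1% of all regions), and 3 were lost (0.353%, against 0.404%). The gained regions belonged to Unc5d, Unc5c, Efna5, Epha4, Epha5, Slit1, Slit3 and Ntn1, 6 in introns (0.866% against 1.23% of all intron regions) and 2 touching an exon. Of 98 guidance promoters 0 were gained (0.7% of all promoters) and 0 lost (0.183%). With the same number of top peaks kept in each library, 10 regions were gained over all places (1.4%, against 1.02%) and 3 lost (0.419%, against 0.601%). The gained share thus turned from below to above that of all regions. An exact permutation test of 3 libraries against 3 cannot give a p below 0.1, so single regions were not tested for presence.

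Among the gained regions the Unc5d intron peak stood highest, 227 kb from the nearest transcript start, at the 70.2nd, 32.2nd and 43.4th percentile in the PFF libraries (17, 11 and 12 fragments). The Efna5 peak, 120 kb into the gene, lay at 61.3, 32.2 and 33.6. The Ntn1 peak, printed above, lay at 30.0, 32.2 and 22.6. These 3 had no peak in the 9 libraries of the other groups, a pattern held by 0.289% of guidance regions and 0.202% of all regions. The Unc5c region at chr3:141476680-141476821 reached 18.5, 56.6 and 51.5 in PFF and 31.7 in 1 PFF+MLi-2 library. In exons, the Epha4 region at chr1:77397696-77397855 reached 48.8, 32.2 and 33.6, and the Slit1 region at chr19:41638381-41638599 reached 45.5, 25.6 and 40.2. For the Slit1 region, 2 PFF+Rab5 ASO libraries and 1 PFF+MLi-2 library also had a peak.

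The 3 lost regions lay in introns of Slit3 and of Epha6, a receptor for ephrin-A ligands. The Slit3 region at chr11:35295298-35295459 had percentiles of 44.2, 25.0 and 46.5 in PBS. The Epha6 regions had 54.8, 40.5 and 17.6 (chr16:60144468-60144627) and 17.9, 29.8 and 62.8 (chr16:60435334-60435518). A peak was back in 2 of 3 PFF+MLi-2 libraries for the Slit3 region and the second Epha6 region, and in 2 of 3 PFF+Rab5 ASO libraries for both Epha6 regions. Of the 8 gained regions, 3 had a peak in no PFF+MLi-2 library and 5 in 1 of them, and 6 had a peak in no PFF+Rab5 ASO library. Over all regions gained in PFF, 42.1% had no PFF+MLi-2 peak and 42.7% no PFF+Rab5 ASO peak. Because gained regions were chosen for being present in PFF, and all comparisons share the PFF libraries, these are descriptions.

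**Figure D3:**
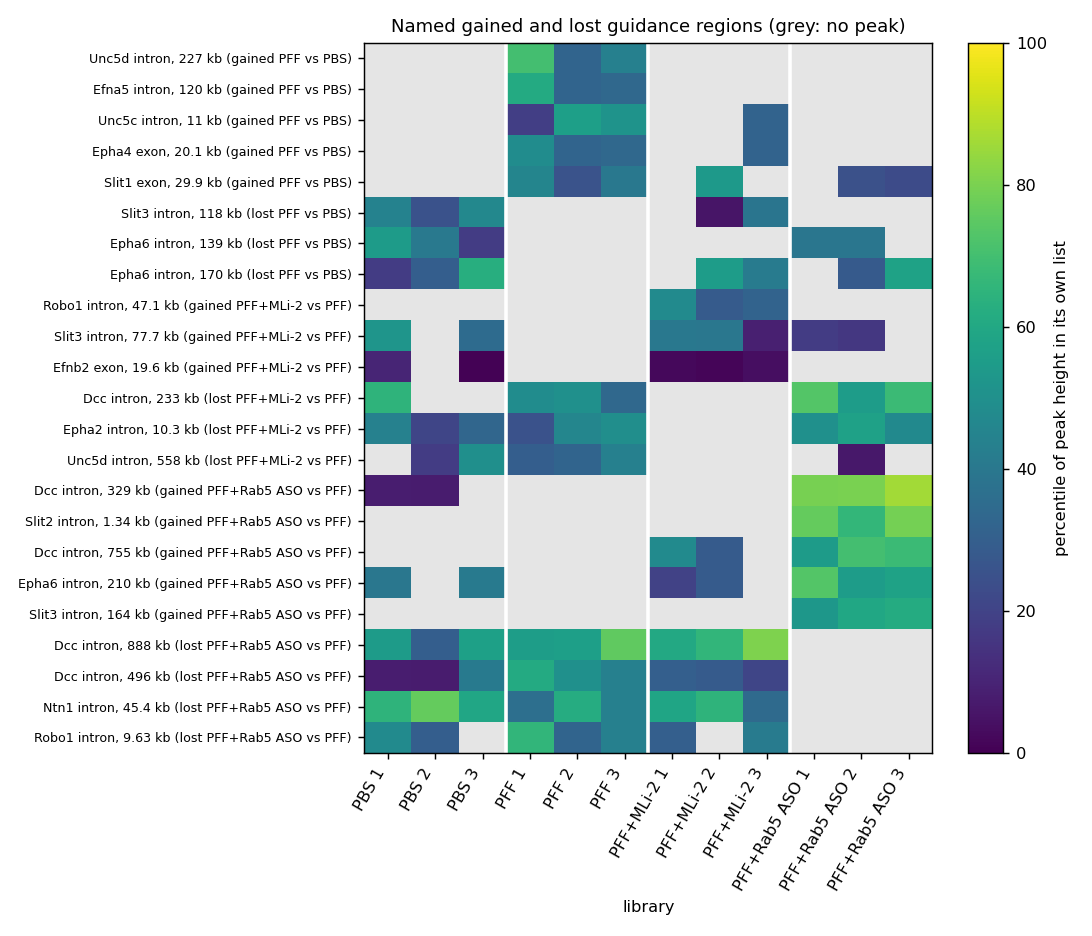
Percentile of peak height (colour) in each of the 12 libraries (columns) for the named gained and lost guidance regions, each given with its gene, place and distance to the nearest transcript start; grey marks a library without a peak and white lines separate the groups. Most coloured cells lie below the 80th percentile, and the Dcc and Slit2 introns gained in PFF+Rab5 ASO are among the brightest.

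Height at regions present in all 12 libraries was tested on normal scores of the rank of fold, with effects in units of the score's SD. In PFF vs PBS limma called 0 of 255 guidance regions and 0 of 72408 regions (0.0%) at an adjusted p under 0.05, and 21 and 7033 had an unadjusted p under 0.05. The count was also 0 with every other setting tried. Groups did not overlap for 13 guidance regions that were higher in PFF (5.1%, against 7.07% of all) and 19 that were lower (7.45%, against 7.99%). The median effect was −0.166 over the 52 guidance promoters, 37 of them negative, against −0.082 over all promoters, and −0.071 over 179 guidance introns against 0.007 over all introns. With height ranked by −log10 q in place of fold, the promoter median was −0.022.

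The largest negative effect of this comparison was at an Epha3 intron, chr16:63782097-63782431, 81.0 kb from a transcript start. Its percentiles were 83.6, 77.7 and 67.7 in PBS and 61.3, 32.2 and 33.6 in PFF, so the groups did not overlap, with an effect of −1.28 (SE 0.27) and a limma adjusted p of 0.232. Introns of Epha4 (−1.01), Unc5c (−0.87), Unc5a (−0.82) and Slit1 (−0.79) followed. Positive effects included introns of Dcc (0.92), Unc5d (0.87) and Unc5c (0.79), and a second promoter region of Ephb6 (0.72). None of these passed the test, and their limma adjusted p ran from 0.232 to 0.537.

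Counted per gene, the number of regions with a peak did not overlap between PFF and PBS for 1 of 35 guidance genes in the upward direction (3.16% of 17682 protein-coding genes) and for 0 in the downward direction (0.424%). The gene was Robo3, a Robo family member that modulates Slit repulsion at the midline, with 5 regions in each PBS library and 6 to 7 in PFF.

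The second comparison asked what LRRK2 inhibition changed in fibril-treated neurons. More regions disappeared than appeared, as over the genome. From PFF to PFF+MLi-2 3 of 819 guidance regions were gained (0.366%, against 0.374% of all) and 11 were lost (1.34%, against 1.64%). All 11 lost regions lay in introns (1.67% of guidance introns, against 1.93%), and of 103 guidance promoters 0 were gained (0.166% of all promoters) and 0 lost (1.1%). By role, 5 of the lost regions belonged to netrin receptors, 2 to EphA receptors and 1 each to EphB receptors, Robo receptors, ephrin-A ligands and netrins, and none to Slits. Keeping the same number of top peaks in each library gave 5 regions gained (0.693%, against 0.713%) and 11 lost (1.53%, against 1.07%). With that setting the lost share lay above that of all regions.

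A Robo1 intron, chr16:72610796-72610927, 47.1 kb from a start, was the only guidance region with a peak in all PFF+MLi-2 libraries and nowhere else (0.0964%, against 0.0194% of all regions), at percentiles of 48.0, 28.7 and 31.7. The other gained regions were a Slit3 intron at chr11:35466781-35466987, with 39.9, 39.6 and 8.98, and an Efnb2 exon at chr8:8619662-8619806, with 2.13, 1.26 and 3.76. Both also had peaks in 2 PBS libraries. Of the lost regions, an intron of Dcc at chr18:72117612-72117757 held 13, 13 and 11 fragments at its summit in PFF and 19, 14 and 17 in PFF+Rab5 ASO. An Epha2 intron at chr4:141327209-141327420 had a peak in all 9 libraries outside PFF+MLi-2, at 43.8, 20.9 and 33.1 in PBS, 25.1, 45.8 and 49.6 in PFF and 50.1, 57.2 and 47.5 in PFF+Rab5 ASO. An Unc5d intron at chr8:29088502-29088701 shared that pattern, which 0.193% of guidance regions and 0.0543% of all regions showed. The 3 PFF-only regions of Unc5d, Efna5 and Ntn1 were among the 11 lost by definition.

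No height difference passed the test in this comparison. Limma called 0 of 255 guidance regions and 0 of 72408 regions (0.0%), with 34 and 8279 at an unadjusted p under 0.05. A fit on all 12 libraries called 56 regions genome-wide and 0 guidance regions. Groups did not overlap for 30 guidance regions higher in PFF+MLi-2 (11.8%, against 10.1% of all) and 20 lower (7.84%, against 7.54%). The median effect was 0.166 over guidance promoters, 40 of 52 positive, against 0.089 over all promoters, and 0.032 over guidance introns against −0.027. Ranked by −log10 q the promoter median was 0.023. The most negative effects were at introns of Ephb2 (−1.15) and Ephb1 (−1.04), receptors for ephrin-B ligands, and the most positive at introns of Slit3 (0.99) and Unc5d (0.87), with limma adjusted p from 0.267 to 0.361. At the Ephb2 region, chr4:136699141-136699347, percentiles were 68.1, 64.6 and 49.5 in PFF and 35.2, 23.2 and 3.39 in PFF+MLi-2.

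Region counts per gene were lower in every PFF+MLi-2 library than in every PFF library for 9 of 35 guidance genes (8.42% of protein-coding genes), and higher for 0 (0.413%). The genes were Ephb1, Ephb2, Slit1, Slit3, Robo3, Unc5a, Unc5b, Epha1 and Epha2. Ephb1 had 41 to 44 regions in PFF and 32 to 33 in PFF+MLi-2, Slit3 had 73 to 83 and 67 to 69, and Slit1 had 31 to 34 and 26 to 27. Among protein-coding genes of at least 100 kb the share was 22.9%, and 4 of the 18 guidance genes of that length were among the 9.

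The third comparison asked what lowering Rab5 changed in fibril-treated neurons, and here a larger share of guidance introns than of all introns was gained. From PFF to PFF+Rab5 ASO 33 of 921 guidance regions were gained (3.58%, against 2.63% of all) and 17 were lost (1.85%, against 1.94%). Introns held 32 of the 33 gained regions, 4.22% of guidance introns against 2.65% of all introns, and 14 of the lost ones (1.84% against 2.36%). Of 104 guidance promoters 0 were gained (0.615% of all promoters). With the same number of top peaks kept in each library, the intron difference was smaller, with 17 regions gained (2.70% of guidance introns against 2.51% of all), and over all places the direction turned, with 18 gained (2.36% against 2.51%).

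**Figure D4:**
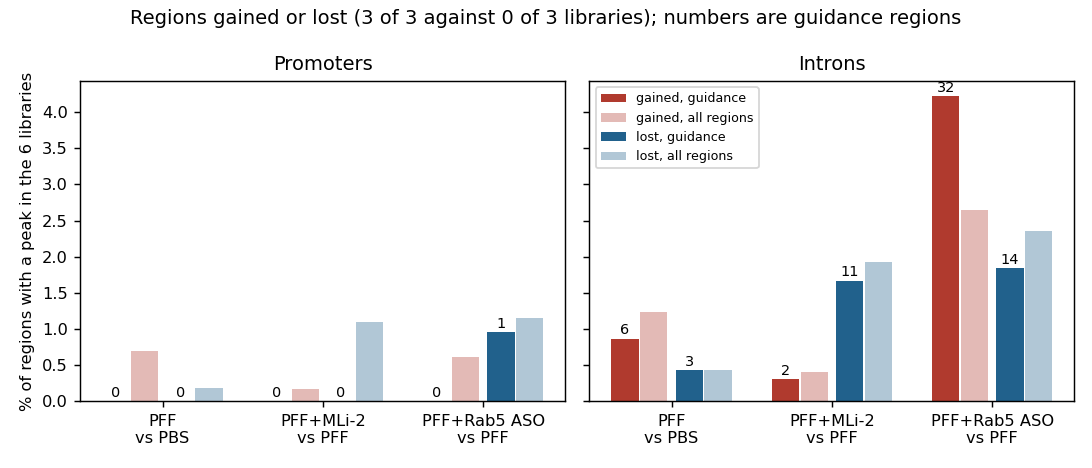
Percent of regions gained (red) or lost (blue) in each comparison at promoters (left) and in introns (right), for guidance genes (dark bars, with the number of regions above) and for all regions (light bars). The intron bar of regions gained in PFF+Rab5 ASO is the one where guidance genes (4.22%) stand furthest above all regions (2.65%).

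The 33 gained regions lay in 14 genes, and 32 of them in genes of at least 100 kb. Netrin receptors held 10, EphA receptors 8, Slits 7, EphB and Robo receptors 3 each and ephrin-A ligands 2, with none at ephrin-B ligands or netrins. The highest was an intron of Dcc, chr18:72022295-72022505, at 79.3, 79.8 and 86.2 in PFF+Rab5 ASO (21, 20 and 23 fragments), with no PFF or PFF+MLi-2 peak and 2 low PBS peaks at 8.13 and 7.71. A Slit2 intron, chr5:48276585-48276726, 1.34 kb from a start, reached 76.4, 66.1 and 79.0 and had no peak elsewhere. Another Dcc intron, chr18:71595613-71595765, reached 54.9, 70.3 and 68.2. The Epha6 intron at chr16:60395459-60395595 reached 73.3, 55.4 and 57.6, with peaks in 2 PBS and 2 PFF+MLi-2 libraries. The Slit3 intron at chr11:35380899-35381028 reached 52.9, 59.7 and 61.5 and had no peak elsewhere. In all, 21 guidance regions had a peak in the 3 PFF+Rab5 ASO libraries alone (2.03%, against 1.14% of all regions), 4 of them in Slit3 and 3 in Unc5d.

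The gained regions were rich in A and T, with a median GC content of 38.8% against 46.8% over all guidance introns, and regions gained over the whole genome in this comparison had 40.8%. None of the 17 lost guidance regions held TGANTCA within 100 bp of the summit, whereas 24.7% of all lost regions did. CAGCTG was found at 5 of the 17 (29.4%, against 22.6%).

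The 17 lost regions were spread over 14 genes. Among them 3 had a peak in all 9 other libraries, 2 in Dcc and 1 in Ntn1, a pattern of 0.289% of guidance regions and 0.183% of all. The first Dcc intron, chr18:71463249-71463444, had 54.8, 29.8 and 56.9 in PBS, 55.6, 56.6 and 75.7 in PFF and 60.3, 66.0 and 80.8 in PFF+MLi-2. The Ntn1 intron, chr11:68341166-68341382, had 65.2, 76.3 and 59.2 in PBS, 36.5, 62.1 and 43.4 in PFF and 58.9, 65.1 and 34.5 in PFF+MLi-2. The second Dcc intron, chr18:71854888-71855084, was lower, with 43.4 to 61.3 in PFF and 7.71 to 41.0 in the other 6. A Robo1 intron, chr16:73016051-73016312, had 66.0, 32.2 and 43.4 in PFF. The 1 promoter region lost (0.962% of guidance promoters, against 1.15% of all) was a minor one of Ntn4, a netrin of basement membranes, at chr10:93641792-93641950, with 6.83, 24.7 and 10.4 in PFF.

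Height differences passed the test in this comparison, at 7 of 255 guidance regions (2.75%, against 3.82% of all), 5 higher and 2 lower. All 7 lay in introns. Groups did not overlap for 46 guidance regions that were higher in PFF+Rab5 ASO (18.0%, against 13.5% of all) and 19 that were lower (7.45%, against 12.4%). The median effect was 0.084 over guidance introns against −0.028 over all introns, and 36 of 179 guidance introns were higher without overlap (20.1%, against 12.8%) and 15 lower (8.38%, against 14.5%). Guidance promoters had a median of 0.130, 35 of 52 positive, against 0.071, but ranked by −log10 q that median was −0.073.

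The Robo2 intron at chr16:74191730-74191975, 164 kb from a start, rose from percentiles of 61.3, 62.1 and 51.5 in PFF to 93.0, 84.5 and 86.2 in PFF+Rab5 ASO, an effect of 1.37 (SE 0.21, limma adjusted p = 0.0173). Robo2 is a Slit receptor of cortical and retinal axons, and its PBS (76.0, 40.5 and 71.9) and PFF+MLi-2 libraries (48.0, 55.4 and 62.2) also lay below PFF+Rab5 ASO. The Slit3 intron at chr11:35286704-35286879 rose from 22.1, 27.1 and 4.32 to 63.9, 63.1 and 59.2 (effect 1.40, SE 0.23, limma adjusted p = 0.0210), while PBS lay at 25.4, 26.1 and 3.98 and PFF+MLi-2 at 8.76, 23.5 and 25.6. A separate gained Slit3 region began just after it, at chr11:35286897-35286977.

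Unc5d, a netrin receptor of upper-layer cortical neurons, had 2 such introns. At chr8:28801500-28801831 the percentiles rose from 66.0, 56.6 and 51.5 to 90.7, 88.2 and 79.0 (effect 1.26, SE 0.22, limma adjusted p = 0.0240), and at chr8:28662044-28662250 from 76.9, 77.4 and 58.0 to 92.0, 95.9 and 93.5 (effect 1.31, SE 0.24, limma adjusted p = 0.0256). At the second region every PFF+Rab5 ASO library lay above all other libraries.

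The Epha3 intron that was lowest in PFF was the fifth region that rose. Its percentiles were 79.3, 73.9 and 68.2 in PFF+Rab5 ASO and 73.0, 66.0 and 49.8 in PFF+MLi-2, against 61.3, 32.2 and 33.6 in PFF and 83.6, 77.7 and 67.7 in PBS. The effect against PFF was 1.09 (SE 0.25, limma adjusted p = 0.0443) for PFF+Rab5 ASO and 0.82 (SE 0.29, limma adjusted p = 0.356) for PFF+MLi-2. The PFF libraries are shared by these contrasts, so the low PFF values enter each of them.

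The Unc5b region that fell had been high in PFF. This intron, at chr10:60816895-60817400, 3.24 kb from a start, went from 90.0, 87.3 and 85.0 to 72.1, 71.8 and 73.3 (effect −0.81, SE 0.19, limma adjusted p = 0.0478), with 77.0, 78.3 and 73.7 in PBS. Unc5b is the netrin receptor best known from vessels. The number of calls rested on single libraries: without PFF replicate 3 or without PFF+Rab5 ASO replicate 1 no guidance region passed (51 and 49 had an unadjusted p under 0.05), while over all regions the calls fell from 2767 to 474 and 0 of 72408 (13301 and 13492 unadjusted). Without each of the other libraries 1 to 5 guidance regions passed, and with the replicate number as a block 4 did. In each of these fits 0 lower guidance regions passed, so both lower calls were lost without any 1 library and with the block.

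**Figure D5:**
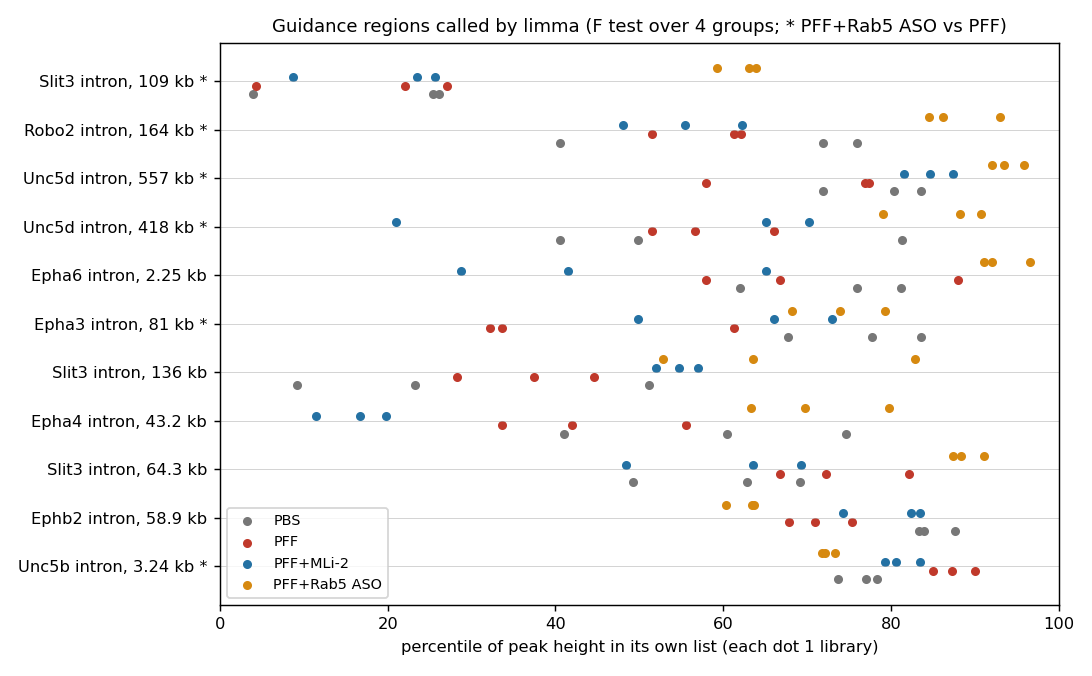
Percentile of peak height in each of the 12 libraries (dots, colour by group) at guidance regions called by limma, in the F test over the 4 groups or, where starred, in PFF+Rab5 ASO vs PFF; labels give the gene and the distance to the nearest transcript start. PFF+Rab5 ASO dots lie to the right of PFF at Robo2, Unc5d and Slit3 and to the left at Unc5b.

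Per gene, the number of regions with a peak was higher in every PFF+Rab5 ASO library than in every PFF library for 4 of 35 guidance genes (3.0% of protein-coding genes) and lower for 3 (4.98%). Those higher were Epha6 (25 to 30 regions against 17 to 23), Epha7 (10 to 13 against 8 to 9), Robo2 (24 to 28 against 20 to 23) and Slit2 (16 to 19 against 11 to 15), all at least 100 kb long, a length at which the share among protein-coding genes was 8.46%. Those lower were Efna4, Unc5a and Unc5b.

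Across the 4 groups the limma F test on all 12 libraries called 9 of 255 guidance regions (3.53%, against 3.5% of all). It called the Robo2 and Epha3 regions already named, with Slit3 chr11:35286704-35286879 and Unc5d chr8:28662044-28662250. The others were introns of Ephb2, Epha4, Epha6 and 2 further introns of Slit3. The lowest limma adjusted p, 0.0206, was that of the Ephb2 intron at chr4:136776430-136776899, where PBS had 87.6, 83.9 and 83.3, PFF 75.3, 67.8 and 70.9, PFF+MLi-2 74.3, 83.5 and 82.4, and PFF+Rab5 ASO 63.4, 63.7 and 60.3. Here PFF lay below PBS and PFF+Rab5 ASO lay below every other library. At the Epha4 intron at chr1:77420785-77421056 (limma adjusted p = 0.0307) PFF+MLi-2 was the lowest group, with 19.8, 16.7 and 11.5, against 55.6, 42.0 and 33.6 in PFF and 69.7, 79.8 and 63.3 in PFF+Rab5 ASO. At the Epha6 intron at chr16:60003129-60003474 (limma adjusted p = 0.0318) PFF+Rab5 ASO was the highest, with 92.0, 91.1 and 96.6, and PFF+MLi-2 the lowest, with 65.1, 28.7 and 41.5. The Slit3 introns at chr11:35480162-35480427 (limma adjusted p = 0.0293) and chr11:35680991-35681167 (limma adjusted p = 0.0479) had their highest group mean in PFF+Rab5 ASO, with 88.3, 91.1 and 87.4 at the first and 82.9, 63.6 and 52.8 at the second. At the second, PFF+MLi-2 had 57.0, 52.0 and 54.7, which overlapped PFF+Rab5 ASO, and the call held in 3 of 15 alternatives. Without any 1 of the PFF+Rab5 ASO libraries the F test called 0 guidance regions, and 41 to 48 had an unadjusted p under 0.05. Over all 72408 regions its calls fell from 2534 to between 279 and 609 in the same fits, with 12681 to 13191 unadjusted.

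Genes that act with the family were read from a second list of 38 genes, holding further netrins, other netrin receptors such as Neo1 and Dscam, and cytoplasmic effectors such as the Srgap proteins behind Robo, Ngef and Vav behind Eph receptors, and Trio, Dock1 and Fyn behind Dcc. They held 1119 regions. In the Rab5 ASO comparison 21 of 980 with a peak in its libraries were gained (2.14%, against 2.63% of all regions) and 19 lost (1.94%, against 1.94%). The MLi-2 comparison had 1 of 889 gained (0.112%, against 0.374%) and 16 lost (1.80%, against 1.64%). For PFF vs PBS 9 of 923 were gained (0.975%, against 1.1%) and 1 lost (0.108%, against 0.404%). Limma called 12 of their 295 regions in PFF+Rab5 ASO vs PFF, 8 higher and 4 lower, against 3.82% of all regions, and 0 in each of the others. None of the 12 passed without PFF+Rab5 ASO replicate 1, where 0 of 72408 regions did. Dscam, a receptor that can bind netrin, held 4 of the 12, with 2 introns higher and 2 lower, and the widest difference was at an intron of Fyn (effect 1.76, SE 0.319, limma adjusted p = 0.0243).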

How the data were processed

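ATAC-seq libraries of mouse cortical neurons were used, 3 in each of 4 groups. Groups follow the titles and treatment labels; the description field of both inhibitor groups mentions PBS where these labels have PFF. Per the study's methods, each pregnancy counted as 1 biological replicate, and the cultures from it went to experimental groups at random. The sources used here do not say whether libraries with the same number share a pregnancy. Per the study's methods and processing notes, reads were trimmed with Trim Galore 0.6.7, aligned to GRCm38 with Bowtie2 2.5.1, and peaks were called per library with MACS2 2.2.7.1. The MACS2 options, the handling of duplicates and any Tn5 shift are not given in the sources used here, and each would alter peak width, number and height.

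The deposited lists give for each peak a fold enrichment (a ratio to local background), a −log10 p-value and −log10 q-value, the position of the summit and a score derived from the q-value, which entered no comparison. The members and gene lists were chosen with earlier results of these data known.

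Peaks on chromosomes 1 to 19, X and Y (0.0752% of peaks lay elsewhere) were merged into regions, and genes came from GENCODE vM21. Presence per library gave gained and lost regions. Height was the rank of fold among the 72408 regions in all 12 libraries, turned into normal scores and tested with limma 3.58.1 under R 4.3.3 (functions lmFit and eBayes, no covariate, Benjamini-Hochberg over all regions, adjusted p under 0.05). On simulated data a shift of 2 in 200 of 72408 regions was recovered for 70.5% in the Rab5 ASO comparison, 58.5% in the MLi-2 comparison and 60.5% in PFF vs PBS, and a shift of 1 for 0% in each. Summit pileups were computed from fold and p-value, which recovered 99.4% of 4378 simulated peaks, and relative depth is the background divided by the smallest peak width. Other steps used Python 3.11.15 with pandas 2.3.3, numpy 2.4.6, scipy 1.17.1, pysam 0.24.0 and matplotlib 3.10.9.

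The regions named were, in each comparison, up to 5 gained and 5 lost guidance regions with the highest mean percentile, up to 5 with the largest positive and 5 with the largest negative limma effect, the highest promoter of each gene, and regions called by the F test. The Ntn1 and Unc5d regions named as present only in PFF or absent only in PFF+MLi-2, the lost Ntn4 promoter and the Slit3 region beside a called one were chosen after their values were seen. The values of 1 region that these rules name (in PFF vs PBS and in the Rab5 ASO comparison) and of 1 marker list are not reported here, although the region is part of the counts.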

Additional observations from a re-analysis of the deposited data

How the results depend on the processing

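A region was also called present in a group when at least 2 of 3 libraries had a peak, and absent when none did. This raised the gained and lost guidance regions to 45 and 24 in PFF vs PBS (5.29% and 2.82%, against 4.32% and 2.47% of all regions). In the MLi-2 comparison they were 24 and 63 (2.93% and 7.69%, against 1.83% and 6.06%). In the Rab5 ASO comparison they were 70 and 61 (7.6% and 6.62%, against 6.62% and 5.69%). Each guidance share lay above that of all regions here, unlike most shares under the main rule. With library lists shortened to the same number of top peaks, the regions gained were 5 in the MLi-2 comparison and 18 in the Rab5 ASO comparison, 17 of them in introns, and promoters and introns with a peak averaged 65.0 and 362.7 in PFF+Rab5 ASO, 66.3 and 336.3 in PFF+MLi-2 and 67.3 and 359.3 in PFF. A −log10 q of at least 3 left 1 region gained in the MLi-2 comparison. Widening promoters to 2 kb gave 98.0 promoters with a peak in PFF+Rab5 ASO, 92.7 in PFF+MLi-2, 101.7 in PFF and 93.0 in PBS, and 341.0 introns in PFF+MLi-2. Ranking by −log10 q moved the promoter medians to −0.022, 0.023 and −0.073 in the order PFF vs PBS, the MLi-2 comparison and the Rab5 ASO comparison.

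Same-numbered libraries correlated at 0.00519 to 0.079 in their deviations from group means, all 18 pairs above 0 but not each library best with its own number. Because none passed 0.1 and no source ties the number to a pregnancy, the numbers were not taken as pairs. With the replicate block limma called 4 guidance regions in the Rab5 ASO comparison in place of 7, 0 of them lower in place of 2, and 1668 of all regions in place of 2767 (846 higher in place of 1423 and 822 lower in place of 1344). It moved no other count of calls by more than 1.5 times.

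Leaving out 1 library at a time gave 11 to 25 regions gained and 3 to 16 lost in PFF vs PBS, 4 to 14 and 19 to 39 in the MLi-2 comparison, and 37 to 50 and 19 to 35 in the Rab5 ASO comparison, with 35 to 46 introns gained in the last. In the reduced group, presence in 2 libraries or absence from 2 then sufficed. Limma calls ran from 0 to 5 in the Rab5 ASO comparison, from 0 to 10 in the F test, and stayed at 0 in the others. Promoter medians ran from −0.243 to −0.099, from 0.142 to 0.219 and from 0.04 to 0.176 in the same order of comparisons, and intron medians from −0.093 to −0.045, 0.026 to 0.072 and 0.064 to 0.119. The effect changed sign at the Epha2 promoter in PFF vs PBS without PBS replicate 2 (−0.08, and up to 0.6 without another library), at Epha3 in the MLi-2 comparison without PFF+MLi-2 replicate 2 (0.28, and down to −0.22), and in the Rab5 ASO comparison at Ntn4 without PFF+Rab5 ASO replicate 2 (0.26, and down to −0.31) and at Efnb3 without PFF+Rab5 ASO replicate 3 (−0.01, and up to 0.51). The cause was not tested. Over 11 alternatives each, the call in the Rab5 ASO comparison held in 8 for Robo2 and in 3 for Unc5b, the most and the fewest of the 7 regions, with limma adjusted p of 0.0146 to 0.0573 and 0.0279 to 0.124.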
